A study of Mus musculus with 5 samples.

Results

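LINE elements are the long interspersed retrotransposons of mammalian genomes, and this account follows their RNA by subfamily in mouse embryonic stem cells depleted of Trim28 or carrying hairpins against Wtx. The members were all rows that the deposited list of repeats places in the class LINE, which gave 122 of the 1221 rows of the repeat table. Of these, 14 rows had names starting with L1Md (6 rows) or L1_M (8 rows) and are called young mouse L1 here. Another 98 rows were other L1 elements: 70 L1M, 17 Lx and L1_Rod, 3 L1V, 2 L1P and 6 HAL1. The last 10 rows belonged to non-L1 families, with 4 L2, 3 CR1 and 3 RTE rows. RNA came from 5 libraries of ES-D3 cells, an embryonic stem cell line, each read by Helicos sequencing, a single-molecule method with no amplification step. The groups were 1 control library with a hairpin against GFP, 2 libraries with Trim28 hairpins and 2 with Wtx hairpins. In all 5 libraries the cells carried a lentiviral hairpin, were selected with puromycin, were grown on irradiated feeder cells with leukemia inhibitory factor, and were replated for 30 min to deplete feeders before extraction. Each hairpin was represented by 1 library and the control was a single library. P-values thus set differences between groups against the spread between hairpins of a target, which may be partly technical. For repeat rows that spread was pooled over the repeat rows.

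A full-length L1 carries an internal promoter in its 5′ end and encodes an RNA-binding protein and a protein with endonuclease and reverse transcriptase activity, with which it copies itself into new sites. In the mouse the L1Md subfamilies named A, T and Gf include copies that still move, while Lx, L1M, L2, CR1 and RTE elements are older and mostly truncated. Silencing of retrotransposons in embryonic stem cells is known to involve DNA methylation and the corepressor Trim28, which KRAB zinc finger proteins bring to DNA and which recruits the histone methyltransferase Setdb1. Wtx (Amer1, given in the gene table as Fam123b, its older symbol) is a component of the complex that degrades beta-catenin.

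The hairpin targets are shown because they define the groups. All lie in coding sequence on GRCm38. The Trim28 targets lie on the plus strand, in exon 12 of 17 at chr7:13029440-13029460 for replicate 1 and in exon 16 at chr7:13030559-13030579 for replicate 2. Both Wtx targets lie on the minus strand in exon 2 of 2 of Amer1, at chrX:95426292-95426312 for replicate 1 and chrX:95426291-95426311 for replicate 2. Capitals mark the 20 bases that the Wtx hairpins share, so that pair covers 1 site.
shTrim28 replicate 1: ccaccagtcttcaaggtcttt
shTrim28 replicate 2: ccgcatgttcaaacagttcaa
shWtx replicate 1: gCCAGACATGCAAGAAGCAAA
shWtx replicate 2: CCAGACATGCAAGAAGCAAAt

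Trim28 stood at 783 CPM (estimated counts scaled to the effective gene library size) in the control, 63.5 and 48.4 with the first and second Trim28 hairpin, against 400 and 396 in the shWtx-labelled libraries. Fam123b stood at 15.2 CPM in the control, 19.3 and 30.5 with shTrim28, against 25.7 and 16.7 in the shWtx-labelled libraries. The targeted gene was thus low in shTrim28 and not below the control in the shWtx-labelled libraries. There Fam123b had a log2 fold change of 0.65 against the control (SE 0.63, edgeR adjusted p = 0.508). It rested on 8.5 estimated counts in the control and on 18.6 and 6.07 in the shWtx-labelled libraries. Its level does not bear out their label, and counts this low cannot decide whether Wtx was depleted.

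Gene totals ranged from 280614 estimated counts in shTrim28 replicate 1 to 1901563 in replicate 2, and LINE totals from 40221 in the control to 284413 in shWtx replicate 1. There were 6.86 LINE counts per 100 gene counts in the control, 23.0 and 14.8 with shTrim28, against 37.3 and 32.9 in the shWtx-labelled libraries. Chemoreceptor genes, 1352 rows of smell, pheromone and taste receptors that these cells are not known to use, moved with the LINE counts. Their summed level was 356 CPM in the control, 6.67 and 4.58 times that with shTrim28, against 13.3 and 11.3 times in the shWtx-labelled libraries. Only 4 of these rows had at least 3 estimated counts in the control and 16 were tested, so the sum adds up many rows near 0. Of 10 listed embryonic stem cell markers, 9 were found by the listed symbol. These summed to 6072 CPM in the control, 1673 and 1798 with shTrim28, against 2854 and 3093 in the shWtx-labelled libraries. Lin28a, given in the gene table as Lin28, its older symbol, was not in this sum and did not share its fall. Its log2 fold change against the control was 0.23 in shTrim28 (SE 0.37) and −0.068 in the shWtx-labelled libraries (SE 0.39). The 14 feeder fibroblast markers summed to 1289 CPM in the control (with Lum at 0), 2513 and 2848 with shTrim28, against 1337 and 1506 in the shWtx-labelled libraries. Of 12 tested, 3 were higher and 0 lower in shTrim28 than in the control in edgeR (4.27% and 2.26% of all genes). In the shWtx-labelled libraries 2 were higher and 1 lower (10.9% and 4.94%). The part of these differences in the LINE results was not tested, and in bulk RNA fewer cells of a type cannot be told apart from less RNA per cell.

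Relative to gene reads, every young L1 subfamily rose in shTrim28, in a table where 20.9% of all repeat rows tested were higher and the median log2 fold change was 1.15. L1Md_F2, the most abundant LINE row, stood at 6741 CPM in the control, 27880 and 22532 with shTrim28, against 51055 and 43274 in the shWtx-labelled libraries. L1Md_F stood at 460 CPM in the control, 3185 and 2330 with shTrim28, against 7245 and 5879 in the shWtx-labelled libraries. L1_Mm stood at 478 CPM in the control, 3417 and 2417 with shTrim28, against 6659 and 5667 in the shWtx-labelled libraries. The 3 groups did not overlap for any of these rows, with the control lowest and the shWtx-labelled libraries highest. Both shTrim28 libraries were below both shWtx-labelled libraries in 82.2% of all repeat rows tested, a share that leaves the control out. The log2 fold change of shTrim28 against the control was 2.61 for L1_Mm (SE 0.58, edgeR adjusted p = 0.00109), 2.58 for L1Md_F (SE 0.57, adjusted p = 0.00109) and 1.90 for L1Md_F2 (SE 0.45, adjusted p = 0.00238). All 14 young rows were also called by DESeq2 and without shTrim28 replicate 2, and none was without shTrim28 replicate 1 (14 at an unadjusted p under 0.05), shWtx replicate 1 (9) or shWtx replicate 2 (9).

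**Figure D1:**
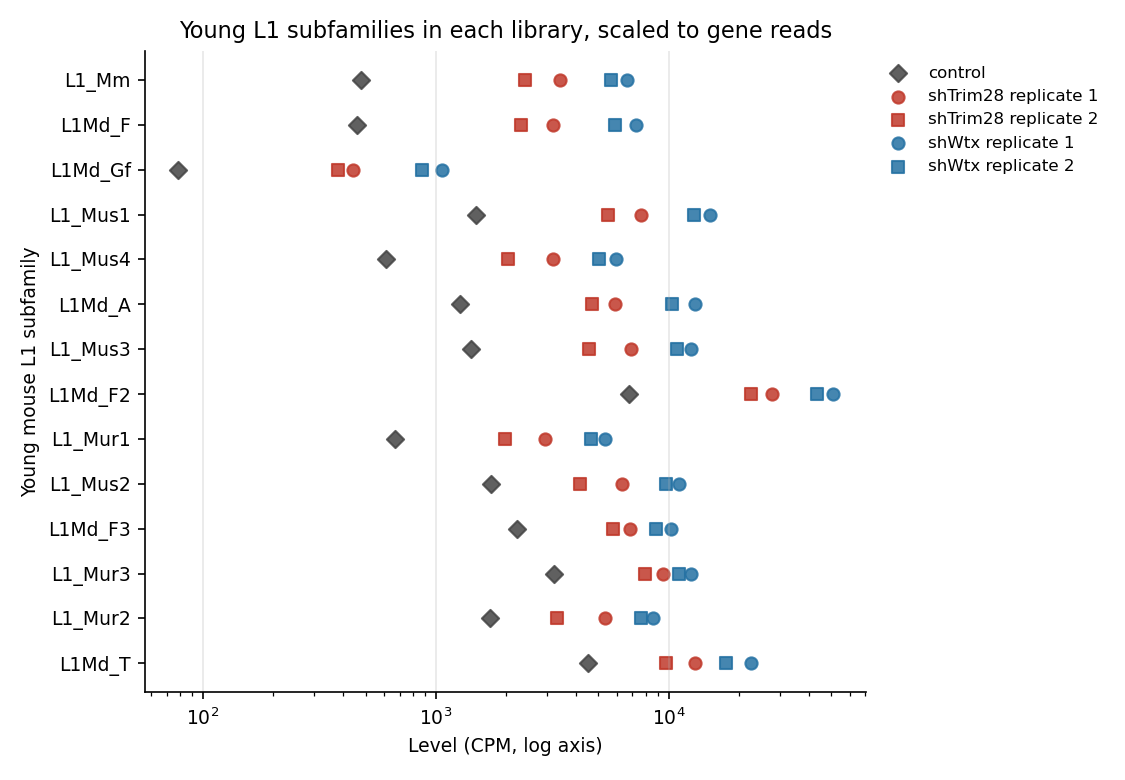
Level of each young L1 subfamily (vertical axis) in each library, in CPM on a log axis. Diamonds are the control, circles and squares the first and second hairpin of each target, and rows are ordered by their log2 fold change in shTrim28 against the control, from L1Md_T at 1.34 to L1_Mm at 2.61. In all 14 rows the control is lowest and the shWtx-labelled libraries are highest. Both shTrim28 libraries lie below both shWtx-labelled libraries in 82.2% of all repeat rows tested, a share that leaves the control out.

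Among subfamilies that include mobile copies, L1Md_A stood at 1274 CPM in the control, 5882 and 4687 with shTrim28, against 12936 and 10389 in the shWtx-labelled libraries. L1Md_Gf, the rarest of the young rows, stood at 78.4 CPM (exact Poisson 95% interval 57.3 to 106), 440 and 382, and 1064 and 877. L1Md_T stood at 4508 CPM, 13046 and 9709, and 22666 and 17696. None of the 3 overlapped between groups. With the control left out, 82.2% of all repeat rows tested had both shTrim28 libraries below both shWtx-labelled libraries. The log2 fold changes of the 3 rows in shTrim28 against the control were 2.05 for L1Md_A, 2.37 for L1Md_Gf and 1.34 for L1Md_T (SE 0.53, 0.64 and 0.48, edgeR adjusted p = 0.00523, 0.00791 and 0.0364). The other L1Md row, L1Md_F3, stood at 2233 CPM in the control, 6806 and 5793 with shTrim28, against 10252 and 8796 in the shWtx-labelled libraries, with a log2 fold change of 1.50 in shTrim28 (SE 0.51, adjusted p = 0.0322).

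The 8 L1_M rows spread over a similar range. L1_Mus1 stood at 1494 CPM in the control and 7622 and 5492 in shTrim28, L1_Mus3 at 1421 against 6880 and 4541, and L1_Mus4 at 613 against 3181 and 2050. Their log2 fold changes were 2.13, 2.01 and 2.09, all between the extremes of the class. L1_Mur1 stood at 669 CPM against 2956 and 1981, and L1_Mus2 at 1730 against 6314 and 4164, with log2 fold changes of 1.88 and 1.60. The smallest in this subgroup were L1_Mur3, with 3237 CPM in the control and 9446 and 7908 in shTrim28 (log2 fold change 1.42, SE 0.50, edgeR adjusted p = 0.0344), and L1_Mur2, with 1706 CPM against 5349 and 3320 (1.34, SE 0.52, adjusted p = 0.0469). The shWtx-labelled libraries were above both in all 8 rows, as they were in 82.2% of all repeat rows tested. Their levels ran from 4630 CPM in replicate 2 for L1_Mur1 to 15041 in replicate 1 for L1_Mus1. Near-identical L1 subfamilies can share reads, and no source used here says how these were split, so the 14 rows are not independent measurements.

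Relative to gene reads, 35 of 116 tested LINE rows were higher in shTrim28 than in the control and none was lower in edgeR. DESeq2, with its own size factors of the gene table, gave the same counts. With TMM factors on unfiltered totals the edgeR count of higher rows was 17. The 6 LINE rows with too few counts to test were HAL1N1_MD, L1M2a1, L1M2b, L1MEg2, ALINE and L5. Over all 900 repeat rows tested, 20.9% were higher and 0.111% lower. The calls took in 14 of 14 young rows, 20 of 94 other L1 rows and 1 of 8 non-L1 rows, which was L2. The median log2 fold change was 1.95 for young L1, 1.24 for other L1, 1.12 for non-L1 LINE rows and 1.15 for all repeat rows tested, so the older classes lay near the table as a whole. Of the other L1 rows, all 3 L1V rows and 2 of 5 HAL1 rows were called, against 10 of 67 L1M, 5 of 17 Lx and L1_Rod, and 0 of 2 L1P rows. None of the 3 tested CR1 rows and not the 1 tested RTE row was called, while at an unadjusted p under 0.05 edgeR took in 73 LINE rows in all. No LINE row was called without shTrim28 replicate 1, without shWtx replicate 1 or without shWtx replicate 2, and 94 were without shTrim28 replicate 2. With only the 2 groups compared in the fit the count was also 0 (15 at an unadjusted p under 0.05), and with TMM on the repeat table it was 11.

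Outside the rows named as young, the highest changes in shTrim28 were those of L1VL1 and MusHAL1, the latter a half-L1 element that lacks the second reading frame. L1VL1 stood at 133 CPM in the control, 881 and 627 with shTrim28, against 1911 and 1567 in the shWtx-labelled libraries. MusHAL1 stood at 224 CPM in the control, 1519 and 1030 with shTrim28, against 2846 and 2414 in the shWtx-labelled libraries. Both had a log2 fold change of 2.50 against the control (SE 0.62 and 0.61, edgeR adjusted p = 0.00332 and 0.00274), and their groups did not overlap. In 82.2% of all repeat rows tested, both shTrim28 libraries likewise lay below both shWtx-labelled libraries. That share leaves the control out. L1VL4 and L1VL2 followed, with log2 fold changes of 2.16 and 2.15. By name these 4 rows were outside the young class, and by size of change they lay inside its range of 1.34 to 2.61. That was not particular to them. Further other L1 rows lay in this range, such as L1MC2 at 1.89 and L1_Rod at 1.72, and others below it, such as L1MA4 at 1.09.

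The most abundant of the other L1 rows were Lx elements, which belong to an older rodent radiation of L1. Lx8 stood at 5990 CPM in the control, 12722 and 7209 with shTrim28, against 19203 and 18996 in the shWtx-labelled libraries. Lx9, Lx7, Lx5 and Lx6 stood between 2793 and 3597 CPM in the control and between 4167 and 10178 in shTrim28. Of the non-L1 rows, L2a was the most abundant, at 899 CPM in the control, 2110 and 1563 with shTrim28, against 4101 and 3282 in the shWtx-labelled libraries. L2 stood at 461 CPM, 1553 and 1258, and 3352 and 2846, with a log2 fold change in shTrim28 of 1.60 (SE 0.57, edgeR adjusted p = 0.0351).

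**Figure D2:**
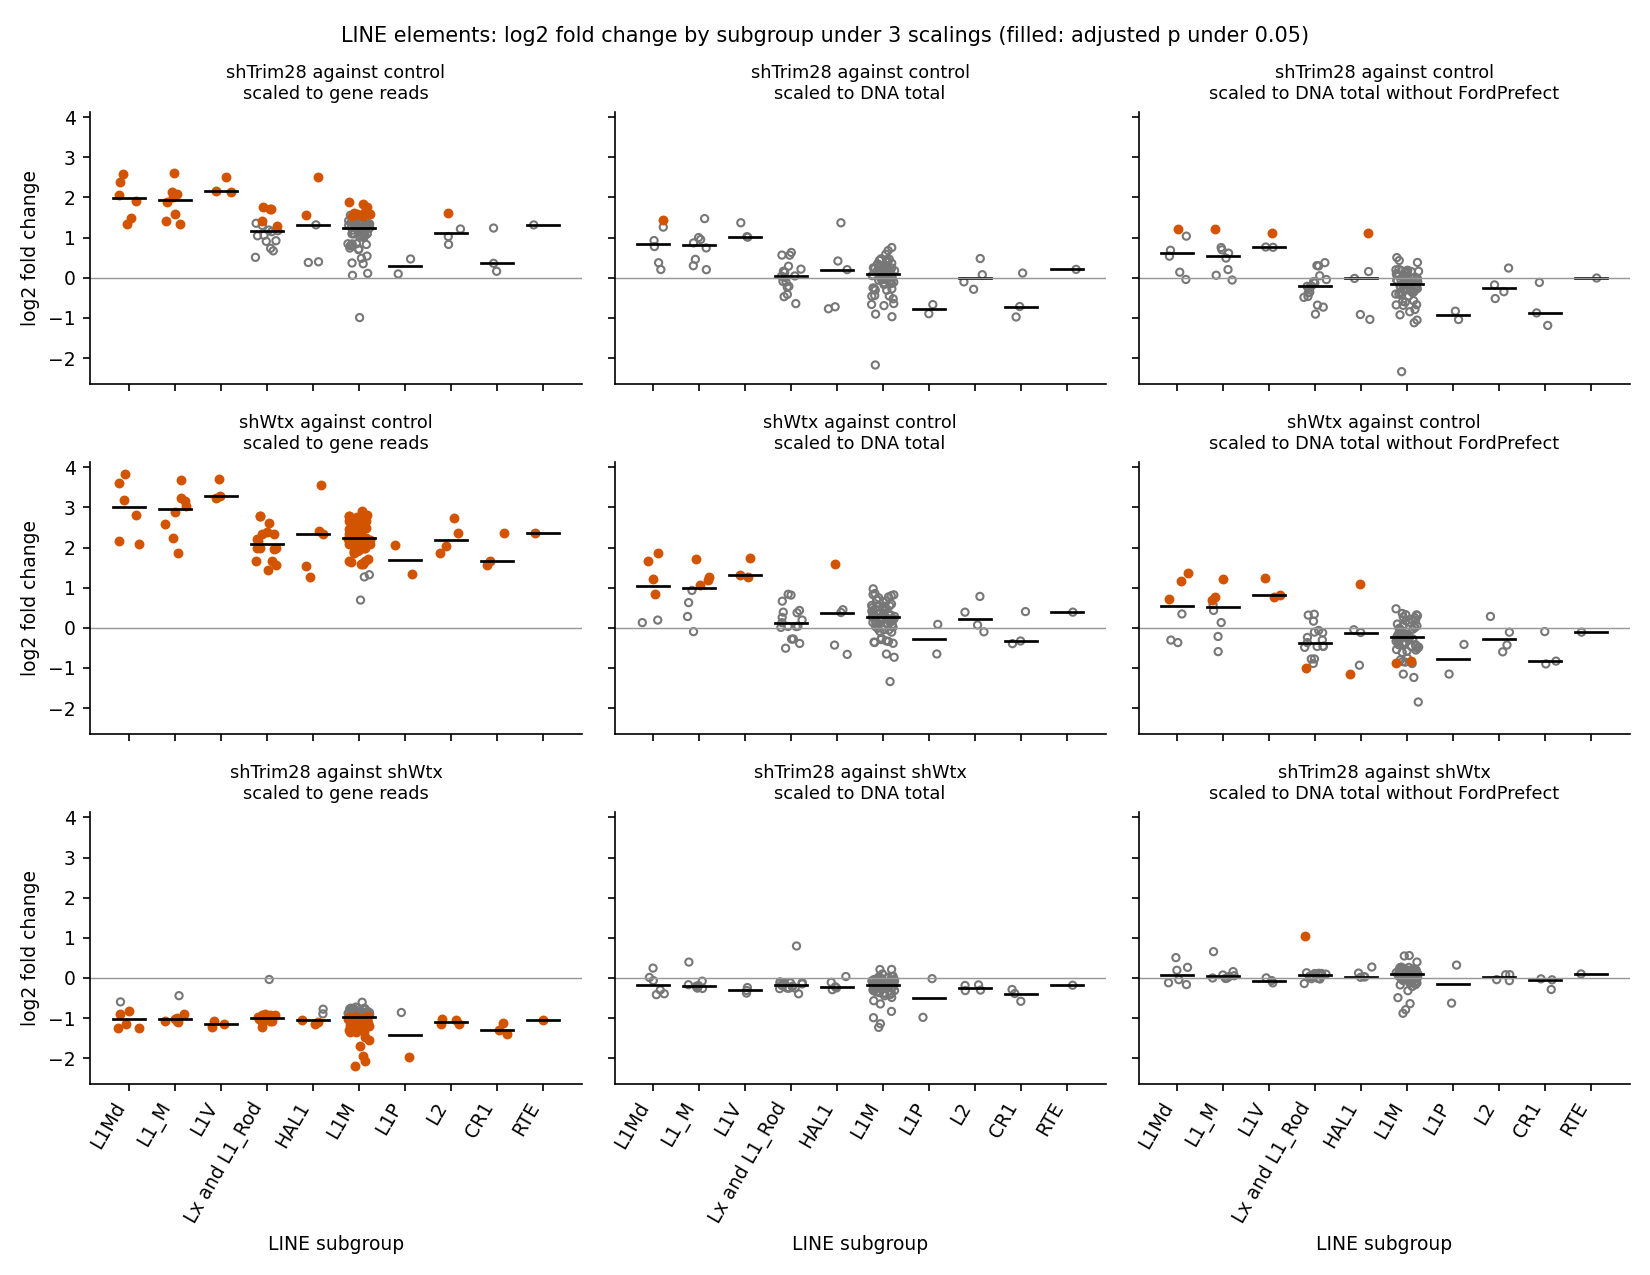
Log2 fold change (vertical axes) of the tested LINE rows by subgroup, for the 3 comparisons (rows of panels) under 3 scalings (columns of panels: gene reads, the total of DNA transposons, and that total without FordPrefect). Each point is 1 LINE row, filled where its edgeR adjusted p was under 0.05, and lines are subgroup medians. In both comparisons with the control, the medians of the L1Md, L1_M and L1V subgroups sit above those of the L1M and Lx rows. That order of medians is the same under all 3 scalings. In shTrim28 against shWtx most rows sit near 0 once scaled to DNA transposons.

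In the shWtx-labelled libraries, which share the control library with the comparison above, 113 of 116 LINE rows were higher than in the control and none was lower, in edgeR and in DESeq2. Over all repeat rows tested 82.2% were higher and 0.333% lower. The median log2 fold change was 2.97 for the 14 young rows, 2.22 for other L1, 2.20 for non-L1 rows and 2.24 for LINE as a whole. L1Md_F had the highest change of the young rows at 3.83 (SE 0.62, edgeR adjusted p = 1.11e-07), followed by L1_Mm at 3.69 and L1Md_Gf at 3.62. L1_Mur3 had the lowest at 1.86, with L1Md_F3 at 2.09 and L1Md_T at 2.16. L1VL1 and MusHAL1 again lay among the young rows, at 3.71 and 3.55, and of the non-L1 rows L2 had the highest change at 2.75, followed by L3 and L4 at 2.37 and L2b at 2.36. Without shWtx replicate 1 the count of higher LINE rows was 41.

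The shTrim28 libraries were also set directly against the shWtx-labelled libraries, a comparison that uses no control library. Like most of the repeat table, LINE rows were mostly lower per gene read in shTrim28. Of 116 rows, 81 were lower and 0 higher in edgeR (98 at an unadjusted p under 0.05; 69 lower and 0 higher in DESeq2), where 66.0% of all repeat rows were lower and 1.33% higher. The calls were 12 of 14 young rows, 61 of 94 other L1 rows and 8 of 8 non-L1 rows, with median log2 fold changes of −1.02 for young rows, −1.14 for non-L1 rows and −1.01 for LINE as a whole. In 112 LINE rows, 96.6% of those tested, both shTrim28 libraries were below both shWtx-labelled libraries, as they were in 82.2% of all repeat rows tested. The exceptions were Lx2, L1PB4, L1MEa and L1MEg1. Lx2 stood at 3731 CPM in the control, 10790 and 9062 with shTrim28, against 10625 and 9759 in the shWtx-labelled libraries, so those 2 groups overlapped (log2 fold change −0.04, SE 0.38, adjusted p = 0.932). The young rows that did not pass were L1Md_F3 (−0.60, SE 0.39, adjusted p = 0.143) and L1_Mur3 (−0.44, SE 0.38, adjusted p = 0.266). No row was lower without shTrim28 replicate 2 or without shWtx replicate 1, 2 were without shWtx replicate 2, and 112 were without shTrim28 replicate 1.

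The largest differences between shTrim28 and the shWtx-labelled libraries were in rare rows. L1M stood at 9.7 CPM in the control, 12.3 and 9.0 with shTrim28, against 43.6 and 42.4 in the shWtx-labelled libraries, a log2 fold change of −2.18 between the last 2 groups (SE 0.48, edgeR adjusted p = 0.00116). L1M3de, L1P5 and L1M2a followed at −2.07, −1.98 and −1.93, each under 50 CPM in every library. In shTrim28 replicate 1, estimated counts were 3.4 for L1M, 3.1 for L1M3de, 0.6 for L1P5 and 4.3 for L1M2a. In the control they were 5.4, 2.7, 2.9 and 4.7. The differences in these rows thus rest on few counts. Of the non-L1 rows the largest were L3b and CR1_Mam, both of the CR1 family, at −1.41 and −1.29. For L1M, L1P5 and L3b the control lay between the shTrim28 libraries.

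Levels per gene read depend on the scaling, so the make-up of the LINE counts was examined within each library. Young rows held 38.3% of L1 counts in the control (exact Clopper-Pearson 95% interval 37.8 to 38.7), 44.9% (44.5 to 45.3) and 50.4% (50.2 to 50.6) with shTrim28, against 48.0% (47.8 to 48.2) and 46.5% (46.2 to 46.8) in the shWtx-labelled libraries. The control was the lowest of the 5 and shTrim28 enclosed the shWtx-labelled libraries on both sides. With 1 control library and 2 libraries a target, no permutation test of these shares can reach 0.05, and the intervals cover counting error only. Counted on L1Md names alone the shares were 22.0% in the control, 25.1% and 29.6% with shTrim28, against 27.6% and 26.2% in the shWtx-labelled libraries, and the order of the libraries was the same.

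The difference in share from the control was uneven among the young rows. L1Md_F held 0.64% of LINE counts in the control, 1.36% and 1.48% with shTrim28, against 1.84% and 1.72% in the shWtx-labelled libraries. L1Md_F2 held 9.36%, then 11.9% and 14.3%, then 13.0% and 12.6%. Of the 14 young rows, 10 had a share above the control in all 4 other libraries, 2 (L1Md_T and L1_Mur2) a share below it in all 4, and 2 (L1Md_F3 and L1_Mur3) lay on both sides. Over all 116 LINE rows tested the share was above the control in all 4 libraries in 20.7% and below in 44.0%, with 13 of 94 other L1 rows above, among them L1VL1, L1VL2, L1VL4, MusHAL1, Lx and Lx3A. Because the 4 libraries are compared with 1 control, these counts rest on that library.

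Lx2 was set apart between the hairpin targets. Its share of LINE counts was 5.18% in the control, 4.61% and 5.74% with shTrim28, against 2.70% and 2.85% in the shWtx-labelled libraries. L1_Mur3 held 4.49%, then 4.03% and 5.01%, then 3.17% and 3.24%, and L1Md_F3 held 3.10%, then 2.91% and 3.67%, then 2.61% and 2.57%. In these 3 rows the control lay between the shTrim28 libraries and the shWtx-labelled libraries lay below both. Such a separation, with shTrim28 above, was found in 5 LINE rows (4.31% of those tested), the other 2 being L1M1 and L1M3d, and the opposite separation in 34.5%. Lx8, the most abundant Lx row, was below the control in all 4 other libraries, at 8.32% there, 5.43% and 4.56% with shTrim28, against 4.88% and 5.55% in the shWtx-labelled libraries.

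**Figure D3:**
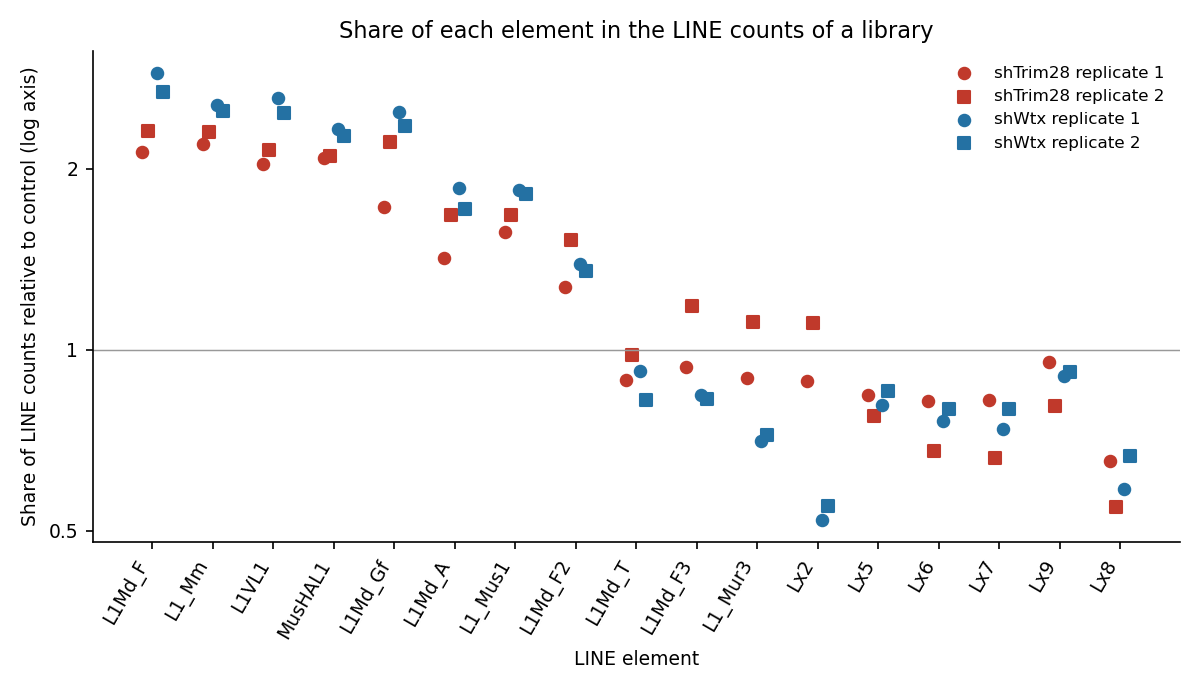
Share of selected elements in the LINE counts of a library, divided by the share in the control (log axis), for the 4 hairpin libraries against Trim28 (red) and Wtx (blue), with the grey line at the control. L1Md_F, L1_Mm, L1VL1, MusHAL1 and L1Md_Gf lie highest, the plotted Lx rows lie below the control except Lx2 in shTrim28 replicate 2, and Lx2 falls lowest in the shWtx-labelled libraries.

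DNA transposons, an ancient class with few or no mobile copies in the mouse, gave a second scale within each library. Per DNA transposon count there were 4.35 young L1 counts in the control, 7.05 and 6.37 with shTrim28, against 6.91 and 7.22 in the shWtx-labelled libraries. Other L1 stood at 7.03 in the control, 8.65 and 6.26 with shTrim28, against 7.49 and 8.31 in the shWtx-labelled libraries. Young L1 was therefore 1.46 to 1.66 times the control in all 4 libraries, and other L1 0.891 to 1.23 times, with the control inside their range. Non-L1 LINE rows stood at 0.391 in the control, 0.421 and 0.383 with shTrim28, against 0.476 and 0.475 in the shWtx-labelled libraries. By subgroup, L1V reached 1.85 to 2.57 times the control, L1Md 1.50 to 1.63 times and L1_M 1.42 to 1.70 times.

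A single row, FordPrefect, made up 33.5% of the DNA transposon counts in the control, 12.3% and 29.0% with shTrim28, against 5.04% and 7.01% in the shWtx-labelled libraries. The ratios were therefore also taken without it, a choice made after the data were seen. Young L1 then stood at 6.54 in the control, 8.04 and 8.97 with shTrim28, against 7.28 and 7.76 in the shWtx-labelled libraries, or 1.11 to 1.37 times the control. Other L1 stood at 10.6 in the control and at 0.747 to 0.934 times that in the other 4 libraries, all below it. The height of both classes thus moved with 1 row of the scale, while their ratio to each other within a library does not depend on it.

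**Figure D4:**
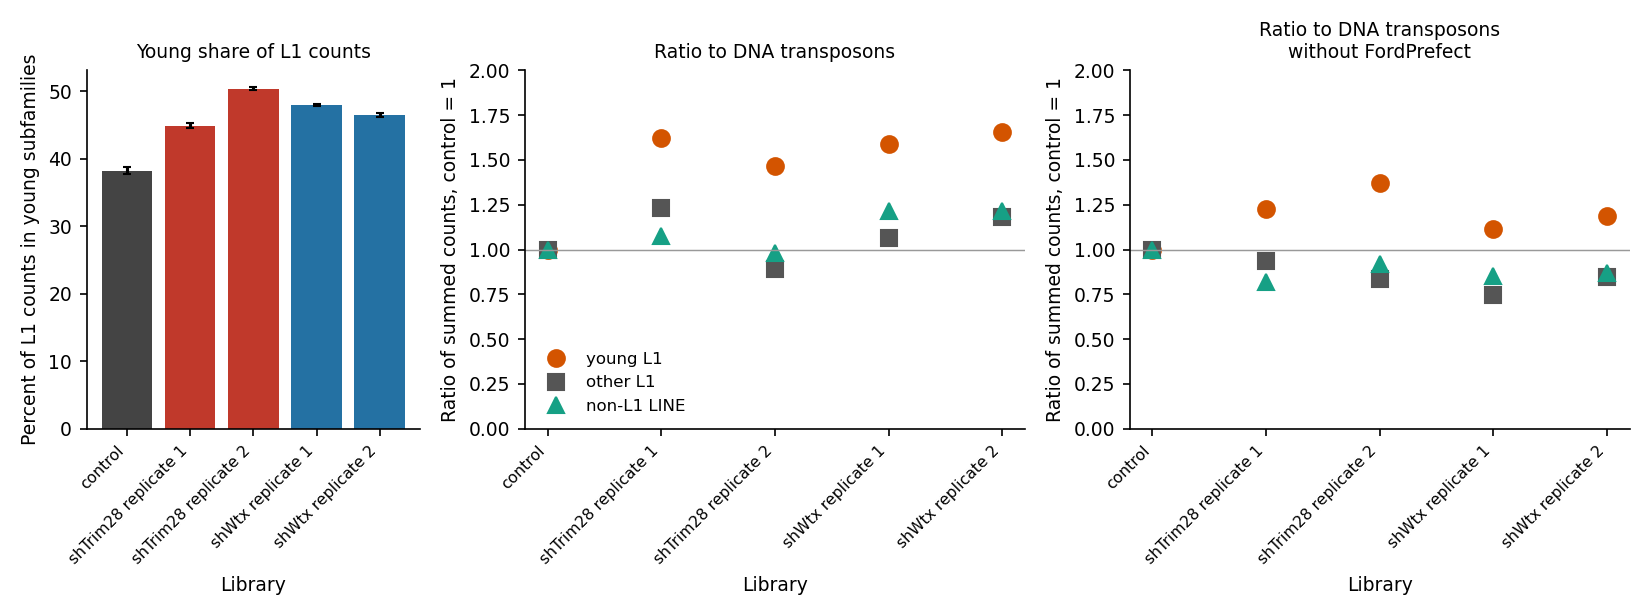
Left, percent of L1 counts in young subfamilies in each library with exact 95% counting intervals (38.3% in the control, 44.9% to 50.4% elsewhere). Middle and right, ratio of summed counts to DNA transposon counts with the control set to 1, with and without FordPrefect: young L1 lies above 1 in all 4 hairpin libraries on both scales, and other L1 lies below 1 in all 4 once FordPrefect is left out.

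Few LINE rows passed the test on these scales. Scaled to the DNA total, 1 of 116 rows was higher in shTrim28 than in the control, L1Md_F (log2 fold change 1.45, SE 0.23, edgeR adjusted p = 0.0483), where 0.444% of all repeat rows were higher and 1.22% lower. Of the same rows, 12 were higher in the shWtx-labelled libraries (4.67% of all repeat rows higher, 7.0% lower), 8 of them young, with L1VL1, L1VL2, L1VL4 and MusHAL1 as the other 4. The median log2 fold change against the control was 0.82 for young and 0.09 for other L1 with shTrim28, against 1.00 and 0.26 in the shWtx-labelled libraries. Without FordPrefect, L1Md_F, L1_Mm, L1VL1 and MusHAL1 were higher in shTrim28, at 1.20, 1.22, 1.13 and 1.12, where 0.889% of all repeat rows were higher and 5.11% lower. On that scale 10 rows were higher and 4 lower in the shWtx-labelled libraries (2.78% and 18.3% of all repeat rows), the lower ones being Lx2, L1MA8, L1MB4 and HAL1-3A_ME.

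Between shTrim28 and the shWtx-labelled libraries no LINE row passed on the DNA scale in edgeR, with 4 at an unadjusted p under 0.05 (0.889% of all repeat rows higher, 0.0% lower). Young L1 had a median log2 fold change of −0.20 there and of 0.04 without FordPrefect. On the latter scale Lx2 alone was higher in shTrim28, by a log2 fold change of 1.06 (SE 0.18, edgeR adjusted p = 0.0396), where 4.56% of all repeat rows were higher and 0.0% lower.

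Genes chosen as possible regulators of L1 formed a list of 47, of which 45 were found in the gene table and 42 tested. In shTrim28 against the control 1 was higher and 8 lower in edgeR, where 4.27% of all genes were higher and 2.26% lower. Trim28, the hairpin target, was 1 of the 8, and the list was made with earlier results of these data known. The list's median log2 fold change was −0.31 against 0.16 for all genes tested. The lower members included the de novo DNA methyltransferases Dnmt3a and Dnmt3b. Dnmt3a stood at 281 CPM in the control, 60.4 and 88.1 with shTrim28, against 146 and 139 in the shWtx-labelled libraries, and Dnmt3b at 108, then 22.4 and 25.4, then 53.1 and 43.0. Both were lowest in shTrim28, with log2 fold changes of −1.81 and −2.13 against the control. Setdb1 stood at 52.1 CPM in the control and 39.6 and 47.5 in shTrim28 (adjusted p = 0.835), and the maintenance methyltransferase Dnmt1 at 99.0 against 86.0 and 66.2 (adjusted p = 0.531).

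Other members lower in shTrim28 were L1td1, which derives from the first reading frame of an L1, at a log2 fold change of −2.07, Tex19.1, a germline and stem cell gene, at −1.92, and the RNase H2 subunit Rnaseh2a at −1.58. Zfp57, a KRAB zinc finger protein of imprinted loci, had −1.45, the dNTP hydrolase Samhd1 −1.07, and Trim28 itself −3.88. L1td1 stood at 257 CPM in the control, 63.5 and 58.8 with shTrim28, against 128 and 149 in the shWtx-labelled libraries. The only member that rose was Dicer1, which processes small RNAs, at 42.4 CPM in the control, 139 and 104 with shTrim28, against 180 and 149 in the shWtx-labelled libraries (log2 fold change 1.43, edgeR adjusted p = 0.0228). The stem cell marker sums given above were lower than the control in the same libraries, and their part in these differences was not tested. Without shTrim28 replicate 1 no member was called in either direction, and without shWtx replicate 1, as in DESeq2, Dicer1 was not.

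In the shWtx-labelled libraries against the control, which share the control library with the comparison above, 1 member was higher and 6 lower (10.9% and 4.94% of all genes). These were Dicer1 at a log2 fold change of 1.94, and Trim28 at −0.97, Dnmt3a at −0.99, Dnmt3b at −1.13, Rnaseh2a at −1.08, Kdm1a, a histone demethylase, at −1.08 and L1td1 at −0.90. No member was lower without shTrim28 replicate 1 or without shWtx replicate 1, Dicer1 was not called without shTrim28 replicate 1, and 1 member was lower without shWtx replicate 2, as in DESeq2. Between shTrim28 and the shWtx-labelled libraries 1 was higher and 8 lower (5.45% and 9.83% of all genes). Yy1, a factor that binds L1 promoters in human cells, was higher by a log2 fold change of 1.00 (a call lost when each of the 4 hairpin libraries was left out in turn, and in DESeq2), and Tet2, which oxidises methylcytosine, was lower by a log2 fold change of −1.47, from 88.3 and 89.5 CPM in the shWtx-labelled libraries to 31.1 and 32.1 in shTrim28. The other 7 were the hairpin target Trim28, and Dnmt3a, Dnmt3b, Samhd1, Tex19.1, L1td1 and Zfp57, at −0.74 to −2.91. Leaving out a library gave 0 to 4 lower members, with none without shTrim28 replicate 1, 1 without shTrim28 replicate 2, 2 without shWtx replicate 1 and 4 without shWtx replicate 2, and DESeq2 gave 1.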

How the data were processed

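Total RNA of 5 libraries was analysed. The authors deposited 2 tables of estimated counts, not scaled between libraries: reads aligned to RefSeq (28642 gene rows) and to Repbase (1221 repeat rows), per the labels, and mm9 is named as the build in the submitters' processing notes. Aligner, counting program and use of strand: not given in the sources used here. The rows were grouped by the class, family and name columns that the authors deposited beside the tables.

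Estimated counts were rounded and tested with edgeR 4.0.16 in R 4.3.3 (filterByExpr, legacy quasi-likelihood test, all 5 libraries in 3 groups, no covariates), which kept 10878 gene and 900 repeat rows. Repeats were scaled by the TMM effective library sizes of the gene table, which also define CPM, and by DNA transposon totals. Since the control was single, each pair of hairpins supplied the spread, with 2 residual degrees of freedom per row. For the repeat table the estimated prior degrees of freedom were infinite. Each repeat row was therefore tested against a spread pooled over the repeat rows, not against that of its own hairpins. P-values were two-sided and adjusted by the Benjamini-Hochberg method over all rows of a table, with a threshold of 0.05. Each SE is approximate, taken as the fold change over the root of F. Alternatives included DESeq2 1.42.0. The procedure was tested on simulated data.

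Gene totals were 280614 to 1901563 estimated counts a library, which sets the precision of low rows. Groups came from the hairpin targets in the labels, and replicates were numbered in accession order. Members, gene lists and the main edgeR settings were chosen with earlier results of these data known. Named rows were all young L1 rows, the 6 most abundant and the 4 largest called changes per comparison in each of the other 2 classes, and every regulator past the threshold. 4 regulators were found under an older symbol. LINE sequences were not used here.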

Additional observations from a re-analysis of the deposited data

How the results depend on the processing

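No paired analysis was possible because the replicate numbers follow accession order and pair nothing. The count of LINE rows higher in shTrim28 than in the control, 35, was 1 when scaled to the DNA total, 4 without FordPrefect in that total, 11 with TMM on the repeat table, 17 with TMM factors on unfiltered totals and 0 with only the 2 groups compared (15 at an unadjusted p under 0.05), and 0 to 94 with 1 library left out. In the shWtx-labelled libraries it was 12, 10 and 14 under the first 3 of these and 41 to 115 with 1 library left out, and 4 rows were lower without FordPrefect. Against the shWtx-labelled libraries the count of lower rows was 0 under each of these 3 scalings and 0 to 112 with 1 library left out, and 1 row was higher without FordPrefect. Scaled to gene reads, the median log2 fold change of all repeat rows in shTrim28 against the control was 1.15. The cause of these moves was not tested.

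Of regulator genes in shTrim28 against the control, 0 were higher in DESeq2, with 0 to 1 higher and 0 to 8 lower with 1 library left out. In the shWtx-labelled libraries, 1 was lower in DESeq2, with 0 to 1 higher and 0 to 6 lower with 1 library left out. Between the 2 targets 0 were higher and 1 lower in DESeq2, with 0 higher and 0 to 4 lower with 1 library left out.

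The sign of some log2 fold changes turned with the scaling, called changes among them. In shTrim28 against the control, L1Md_T went to −0.042 and L1_Mur2 to −0.057 without FordPrefect in the DNA total. In the shWtx-labelled libraries against the control that scale gave −0.37 for L1Md_F3, −0.31 for L1Md_T, −0.21 for L1_Mur2, −0.59 for L1_Mur3, −0.093 for L3, −0.11 for L2b and −0.11 for L4. There L1_Mur3 was −0.095 on the DNA total and −0.26 with TMM on the repeat table, where L1Md_F3 was −0.031. Between the targets, on the DNA total, without FordPrefect and with TMM on the repeat table, L1Md_F3 was 0.24, 0.51 and 0.40, L1_Mur3 0.39, 0.65 and 0.55, and Lx2 0.80, 1.06 and 0.95. L1Md_F2 was 0.19 and 0.087 under the last 2 of these. With 1 library left out, Lx2 ran from −0.16 to 0.040, the last without shTrim28 replicate 2, where Fam123b was −0.36.

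The young share of L1 counts with L1Md names alone was 22.0% in the control, 25.1% and 29.6% with shTrim28, against 27.6% and 26.2% in the shWtx-labelled libraries. Without L1Md_F2 it was 31.6%, 37.2% and 41.9%, and 39.9% and 38.5%. The ratio of young L1 to DNA counts with L1Md names alone was 2.50 in the control, 3.94 and 3.74 with shTrim28, against 3.98 and 4.06 in the shWtx-labelled libraries, and that of other L1 was 8.88, 11.8 and 8.89, and 10.4 and 11.5. Without FordPrefect the ratio was 6.54, 8.04 and 8.97, and 7.28 and 7.76 for young L1, 10.6, 9.86 and 8.82, and 7.88 and 8.93 for other L1, and 0.587, 0.480 and 0.540, and 0.501 and 0.511 for non-L1 rows. The single control library could not be left out, and it limits each comparison that uses it.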
